A study of Mus musculus with 118 samples.

Results

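The 9 genes described here encode subunits of the ionotropic glutamate receptors of the AMPA and NMDA kinds, and they were chosen by name from the 23998 gene symbols of the count table. They are the 4 AMPA subunits Gria1, Gria2, Gria3 and Gria4 and the 5 NMDA subunits Grin1, Grin2a, Grin2b, Grin2d and Grin3a. Their RNA was read in single cells of SOM-Cre/Ai9 mice by Patch-seq, a method that aspirates the cytosol of a neuron through the recording pipette and sequences cDNA made from it. In these adult animals Cre driven from the somatostatin gene switches on the red marker tdTomato, so that every cell that makes or once made somatostatin (SOM+) is labelled, in every group alike. The labels place 44 cells in layer 4 (L4) of primary visual cortex (V1), 39 in L4 of primary somatosensory cortex (S1), 19 in layer 5 (L5) of V1 and 16 in L5 of S1. Since no label names an animal, an area and layer counts as 1 sample here, and cells were not tested against each other.

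A cell was kept if it had at least 1500 detected genes, no more reads of Slc17a7, the vesicular glutamate transporter of excitatory neurons, than of Gad1 plus Gad2, which make GABA, and at least 1 read of Sst. This left out 9 cells and kept 42 of V1 and 34 of S1 in L4, and 17 of V1 and 16 of S1 in L5. Their total counts ran from 97904 to 3295232, with group medians between 1015272.5 and 1199868.5. Sst was read in all kept cells by the rule itself, Gad1, of which the rule used only the sum with Gad2, was read in all of them too, and Slc17a7 had a median of 0 in every group. Levels of a gene are given as CPM, the count of the gene scaled to the total count of its cell. The cells carry 9 dates in their labels, taken as recording days and numbered 1 to 9, and all L5 cells fall on dates 3 to 6.

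Glutamate is the main excitatory transmitter of the cortex, and its fast receptors are assemblies of several subunits around a cation channel. AMPA receptors carry the rapid part of the excitatory current, and the Gria subunit mix sets how fast it decays and whether calcium passes. NMDA receptors need both glutamate and depolarization to open, always contain Grin1, which binds glycine or D-serine, and take their kinetics from the Grin2 subunits, while Grin3 subunits lower calcium flow.

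All 4 AMPA subunit genes have a glutamine codon at the Q/R site of the pore loop. In Gria2 RNA the enzyme ADAR2 (Adarb1) edits this codon so that it is read as arginine. Receptors with the edited Gria2 subunit pass little calcium, which is why the share of Gria2 is described below. The genomic sequence of this stretch, 56 bases of the coding part of exon 11 in each gene, read on the strand of the gene from GRCm38 with the GENCODE M21 gene models, is shown with the glutamine codon in capitals. The window ends with the exon.
Gria1: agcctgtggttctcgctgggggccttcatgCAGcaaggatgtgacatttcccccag
Gria2: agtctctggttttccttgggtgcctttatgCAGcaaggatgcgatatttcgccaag
Gria3: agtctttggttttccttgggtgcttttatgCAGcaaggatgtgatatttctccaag
Gria4: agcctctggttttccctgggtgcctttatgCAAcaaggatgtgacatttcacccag
The Gria1 window lies at chr11:57243064-57243119 on the plus strand and holds codon 600 of 907. That of Gria2 lies at chr3:80706888-80706943 on the minus strand with codon 607 of 883, that of Gria3 at chrX:41610235-41610290 on the plus strand with codon 612 of 888, and that of Gria4 at chr9:4464114-4464169 on the minus strand with codon 608 of 902. The genome encodes glutamine at this site in all 4 genes, as CAG in Gria1, Gria2 and Gria3 and as CAA in Gria4. Over the 56 bases Gria2 and Gria3 shared 52, while Gria1 shared 45 with Gria2 and 45 with Gria3. A gene count does not separate edited from unedited reads, and editing was not analysed here.

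Most of the subunits were read in nearly every cell. Grin1 was read in all kept cells, Gria2 in all but 1, Gria1 in all but 2, Grin2b in all but 3, Gria3 in all but 4 and Grin3a in all but 5. Gria4 was read in 93 cells (85.3%, 95% Clopper-Pearson interval 77.3 to 91.4%) and Grin2a in 84 (77.1%, 68.0 to 84.6%). Grin2d was read in 37 cells (33.9%, 25.1 to 43.6%), and in 24 cells with at least 5 counts. These intervals cover the sampling of cells only, and cells of a date may share an animal. A kept cell held reads of 2 to 9 of the 9 members, with a median of 8. The remaining NMDA subunit genes, which are no members, were rare: Grin2c was read in 7 cells and Grin3b in 18, and in L5 Grin2c in 0 of 16 S1 cells, which allows a share of up to 18.75%.

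To compare genes with each other, the deposited RPKM values were used, which divide reads by gene length and depth. Gria2 had the highest level with a mean of 7.81 on the log2(RPKM + 1) scale and Gria1 followed at 7.26. Grin1 was at 6.55 and Gria3 at 6.32. Grin3a, at 5.53, lay above Grin2b at 4.60 and Gria4 at 4.15. The lowest levels were those of Grin2a at 3.21 and Grin2d at 0.53. Not every step of this order exceeded the spread over dates. The step from Gria2 to Gria1 was 0.55 (SD over dates 0.65, n = 9 dates), that from Gria1 to Grin1 0.70 (SD 0.71), that from Grin1 to Gria3 0.24 (SD 0.73) and that from Grin2b to Gria4 0.45 (SD 0.55), so these neighbours did not differ beyond it. Grin3a was below Gria3 by 0.79 (SD 0.47) and above Grin2b by 0.93 (SD 0.75), with the same sign in 8 and 9 of 9 dates. Gria4 was above Grin2a by 0.94 (SD 0.78), and Grin2a was above Grin2d by 2.68 (SD 0.67).

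Among all 23998 genes ranked by mean RPKM, Gria2 took place 120, Gria1 place 219, Gria3 place 391 and Grin1 place 522. Grin3a, a subunit that many cortical neurons of the adult make at a low level, took place 1106, ahead of Gria4 (2013), Grin2b (2562) and Grin2a (4091). Grin2d was at place 12770. This order by mean RPKM put Gria3 above Grin1 and Gria4 above Grin2b, unlike the order by mean log2(RPKM + 1). By mean log2(RPKM + 1) within a group, Gria2 was first in all 4 groups and Grin2d last in all 4. Gria1 was at place 2 in both L4 groups and in V1 L5, and at place 4 in S1 L5, where Grin1 and Gria3 stood above it. Grin2b was at place 5 in S1 L5, and at place 6 or 7 in the other groups.

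**Figure D1:**
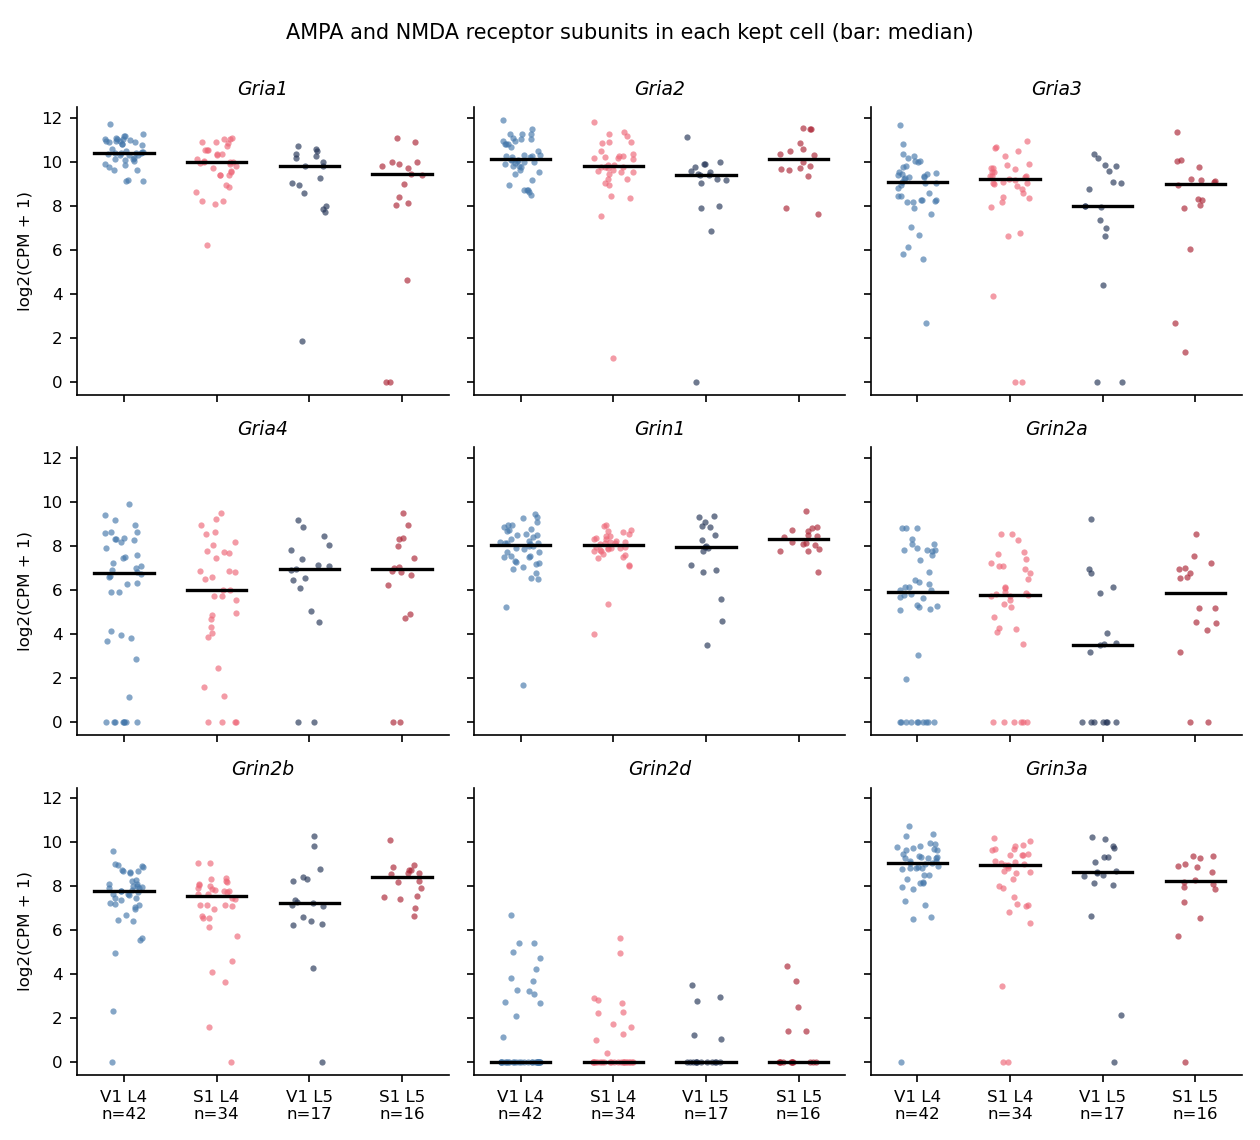
Level of each of the 9 members in every kept cell on the log2(CPM + 1) scale, by area and layer (42 and 34 L4 cells of V1 and S1, 17 and 16 L5 cells of V1 and S1). Each dot is a cell and each bar a group median. Most Gria1, Gria2, Gria3, Grin1, Grin2b and Grin3a dots lie well above 0, with few near it. Gria4 and Grin2a dots run from cells at 0 through low and middle levels to cells with many reads, and most Grin2d dots lie at 0.

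Gria1 is the AMPA subunit best known for activity-dependent insertion into synapses. In V1 L4 its level ran from 556 to 3342 CPM with a median of 1357, and in S1 L4 from 73.6 to 2180 CPM with a median of 1010. In V1 L5 it ran from 2.64 to 1677 CPM with a median of 880, and in S1 L5 from 0 to 2132 CPM with a median of 682. The group ranges overlapped throughout, and the cells with the lowest Gria1 were L5 cells: 2 of 16 S1 L5 cells had no read of it, against 0 of 76 L4 cells.

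Gria2, the subunit that carries the edited site, had L4 medians of 1125 CPM in V1 (353 to 3756) and 891 in S1 (1.11 to 3541), and L5 medians of 679 in V1 (0 to 2194) and 1132 in S1 (197 to 2929). Its lowest S1 L5 cell was therefore far from 0, while V1 L5 held a cell with no read. The V1 L5 median was the lowest of the 4.

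Gria3 varied more from cell to cell, with an SD of 2.36 on the log2 scale over all kept cells beside 1.59 for Gria2. Its L4 medians were 532 CPM in V1 (5.28 to 3226) and 584 in S1 (0 to 1952), and its L5 medians 253 in V1 (0 to 1308) and 510 in S1 (1.58 to 2579). Gria4, the subunit with rapid kinetics that is typical of fast interneurons, was absent from the reads of 16 cells. Its medians were 108.8 CPM in V1 and 63.2 in S1 for L4, and 123.8 in V1 and 120.96 in S1 for L5, each with a lowest value of 0 and a highest between 582 and 952.

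Grin1, the subunit that every NMDA receptor contains, had the narrowest spread of the members over all kept cells, with an SD of 1.19. In V1 L4 Gria1 (SD 0.60) and Gria2 (SD 0.85) were narrower than Grin1 (SD 1.30), while in S1 L4 and S1 L5 the narrowest member was Grin1. Its L4 medians were 262 CPM in V1 (2.15 to 697) and 258 in S1 (14.7 to 494), and its L5 medians 246 in V1 (10.2 to 648) and 313 in S1 (111.99 to 767). The 4 groups overlapped over most of their range. A gene on the opposite strand, Grin1os, overlaps Grin1, and it was read in 98 cells at 10.8 CPM over all cells pooled, beside 286 CPM for Grin1. The counting is not stated to use strand, so reads of the overlap cannot be told apart.

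Grin2a gives NMDA receptors faster decay than Grin2b does, and in development its share rises with age. Its L4 medians were 58.9 CPM in V1 (0 to 444) and 54.1 in S1 (0 to 372), and its L5 medians 10.2 in V1 (0 to 591) and 63.1 in S1 (0 to 375). In V1 L5 10 of 17 cells had a read of it (58.8%, 32.9 to 81.6%), beside 14 of 16 in S1 L5 (87.5%, 61.7 to 98.4%), a difference that was not tested, since cells share dates and may share animals. Grin2b, the subunit with slow decay, had L4 medians of 217 CPM in V1 (0 to 758) and 185 in S1 (0 to 529), and L5 medians of 150.1 in V1 (0 to 1221) and 338 in S1 (99.9 to 1080). The lowest S1 L5 cell had 99.9 CPM of Grin2b, while each other group held a cell with no read.

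Grin2d, an NMDA subunit with very slow decay that is known from interneurons, had a median of 0 CPM in all groups. Pooled over cells it was at 6.36 CPM in V1 (95% Poisson interval 5.70 to 7.07) and 3.23 in S1 (2.74 to 3.78) for L4, and at 1.35 in V1 (0.880 to 1.97) and 2.94 in S1 (2.23 to 3.81) for L5. The reads carry no molecular identifiers, so these intervals and the floors of a count of 0 cover counting error only, and the highest V1 L4 cell alone was at 100.4 CPM. After each cell was thinned to 250000 reads, it was read in 33.3% of V1 and 17.6% of S1 cells in L4 and in 6.67% of V1 and 20% of S1 cells in L5, against 35.7, 35.3, 29.4 and 31.2% at full depth. Grin3a had L4 medians of 528 CPM in V1 (0 to 1685) and 491 in S1 (0 to 1159), and L5 medians of 396 in V1 (0 to 1195) and 302 in S1 (0 to 662). In each group 1 or 2 cells had no read of it.

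The mixture of AMPA subunits within a cell was described by the share of each in the sum of the 4 RPKM values. All kept cells had at least 100 AMPA reads. Over all of them the median share was 38.6% for Gria2 (SD of the date medians 6.53 percentage points, n = 9 dates), 30.4% for Gria1 (5.40), 17.03% for Gria3 (6.16) and 4.17% for Gria4 (2.51). Gria2 led in 56 cells, Gria1 in 38 and Gria3 in 15, and Gria4 led in 0, which allows a share of up to 2.75%. The Gria2 share was above 50% in 34 cells and below 10% in 3. All 4 AMPA subunits were read together in 89 cells.

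By group the Gria2 share had L4 medians of 38.1% in V1 (SD over dates 6.97) and 41.3% in S1 (8.22), and L5 medians of 30.7% in V1 (9.88) and 57.5% in S1 (19.9). The S1 L5 median was 26.8 percentage points above that of V1 L5 (SD of the difference within dates 17.1), and it was higher in 3 of 4 dates. Without date 3 the S1 L5 median was 39.3%. In L4 the same difference was 3.22 points (SD 9.46) with 3 of 5 dates above 0, which is within the spread. Gria1 took a median of 34.5% in V1 and 31.5% in S1 for L4, and of 31.4% in V1 and 18.3% in S1 for L5. Its share in S1 L5 minus that in V1 L5 was -13.04 points (SD 11.3), below 0 in 4 of 4 dates. The leading subunit was Gria2 in 11 of 16 S1 L5 cells and in 5 of 17 V1 L5 cells, where Gria1 led in 8.

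**Figure D2:**
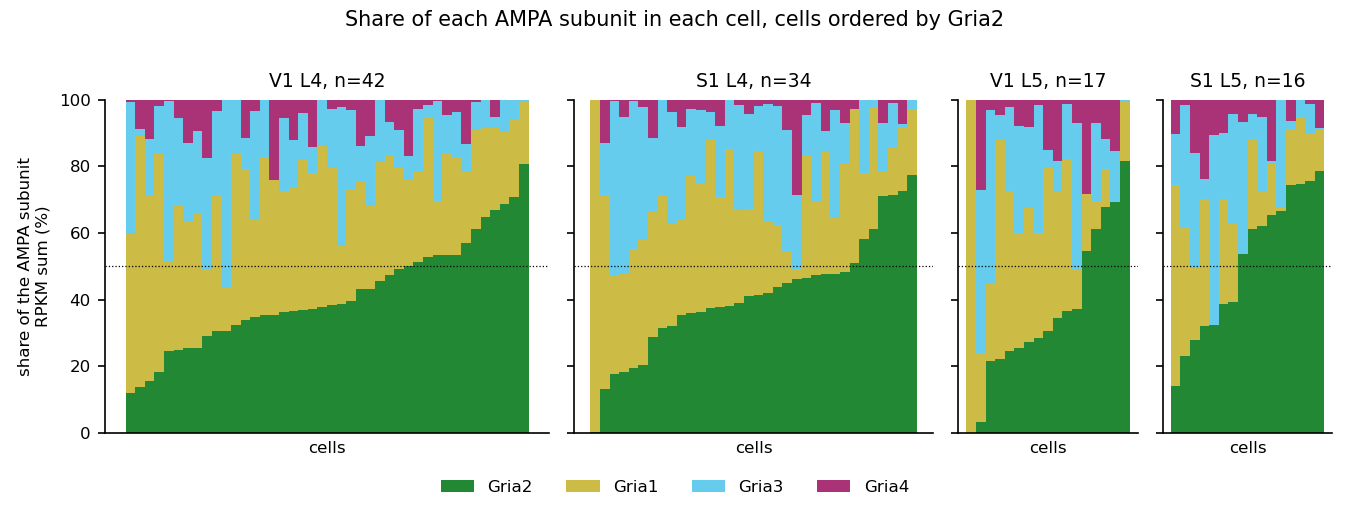
Share of each AMPA subunit in the RPKM sum of the 4, in percent, with a column for each kept cell, ordered by the Gria2 share within each group, L4 on the left and L5 on the right. The dotted line marks 50%; 13 of 42, 7 of 34, 5 of 17 and 9 of 16 cells have Gria2 above it, and Gria4 stays below 30% in every column.

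Grin2a and Grin2b were read together in most cells. Grin2b was read without Grin2a in 22 cells, both were read in 84, neither in 3, and Grin2a without Grin2b in 0 cells, which allows a share of up to 2.75%. Only the 3 cells without a read of Grin2b could have shown Grin2a alone, too few to tell whether Grin2a depends on Grin2b. The depth was the same for both genes, and Grin2b had the higher level. Grin1 was read with at least 1 of the Grin2 members in all but 3 kept cells and with Grin3a in all but 5. In the 97 cells with at least 100 reads of Grin2a plus Grin2b, the median Grin2b share of their RPKM sum was 60.1% in V1 (SD over dates 20.7) and 65.5% in S1 (8.88) for L4, and 89.8% in V1 (16.7) and 76.0% in S1 (5.20) for L5. In L5 the area difference of -13.8 points was within its spread (SD 21.3). Between layers, over dates 3 to 6, the share was 84.0% in L5 and 66.5% in L4, a difference of 17.5 points (SD 10.1, higher in 2 of 3 dates with enough cells).

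**Figure D3:**
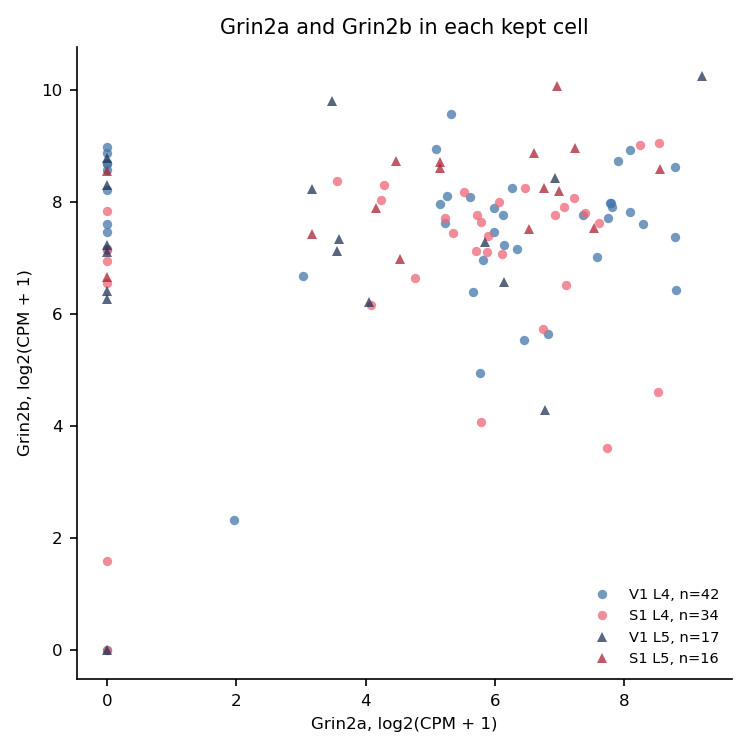
Grin2a against Grin2b in each kept cell, both on the log2(CPM + 1) scale, with circles for L4 and triangles for L5. A column of 22 cells has Grin2b and no Grin2a, 3 cells lie at 0 on both axes, and no cell lies on the Grin2a axis away from 0.

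The first comparison was between areas in L4, where the study contrasts SOM+ cells of different axon shape. Differences are S1 minus V1 of the mean log2(CPM + 1), and their spread is the SD of the same difference within the 5 dates that have at least 2 cells of each group. Of the 9 members 0 were higher and 0 lower in S1 by 1 log2 unit or more. The groups share the dates unevenly, and as the mean of the differences within dates 3 members were lower by that much, Gria2 at -1.03, Gria3 at -1.08 and Grin3a at -1.75. Date 8, with 2 S1 L4 cells, weighed on these means, with differences of -4.72, -4.99 and -4.52. On the other dates Gria2 ran from -0.39 to 0.42, Gria3 from -1.08 to 1.06 and Grin3a from -2.33 to -0.45. Among the 9993 genes that reached 32 counts in 10 or more kept cells, a set that holds 8 of the members and leaves out Grin2d, 7.64% were higher by 1 log2 unit or more and 7.29% lower. The median difference was -0.49 over the 9 members and 0.01 over the 9993 genes.

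Gria1 had the clearest difference in L4, with a mean of 9.79 in S1 and 10.44 in V1. The difference was -0.66 (SD over dates 0.45), and it was below 0 in 5 of 5 dates. It was -0.38 without date 7. Grin3a was lower in S1 in 5 of 5 dates as well (difference -0.66), but with a spread of 1.72 that exceeds it. The Grin3a difference was -0.07 among cells with at least 4000 detected genes and -0.11 between the medians over cells. Grin2d differed by -0.49 (SD 0.45, 4 of 5 dates), which rests on few reads. Of all genes tested 6.51% had the same sign in every date, beside 2 of the 9 members.

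The other members differed between areas in L4 by less than their spread. The values were -0.50 for Gria2 (SD 2.08), -0.20 for Gria3 (SD 2.36), -0.09 for Gria4 (SD 1.79), 0.07 for Grin1 (SD 0.65), 0.13 for Grin2a (SD 2.34) and -0.54 for Grin2b (SD 1.57). Date 8, where S1 L4 is represented by 2 cells, stood apart for Gria2, Gria3, Grin2b and Grin3a, with differences of -4.72, -4.99, -3.44 and -4.52. In the first of them 9 of 9 members were read, while the second had 455 CPM of Gria1, 249 of Grin1 and 1.11 of Gria2 and no read of the other 6. That cell had 2792 detected genes and 1223 CPM of Sst. The Grin2a difference changed sign between blocks of dates. It was 1.25 over the June to July dates and -0.94 over the September dates, which include date 8. Cells of the blocks may differ in more than the date, and the reason was not tested.

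The AMPA subunits summed differed by -0.36 (SD 0.64) and the NMDA subunits summed by -0.30 (SD 0.36), both below 0 in 5 of 5 dates and within the spread. These sums were chosen after the values of the single subunits were seen. Oligodendrocyte markers (Mbp, Mog, Mag and Mobp), all 4 with reads in S1 L4 and 3 of 4, without Mag, in V1 L4, were at 1033 CPM pooled in S1 L4 and 226 in V1 L4. Their sum ran from 0 to 9510 CPM in S1 L4 and from 0 to 3717 in V1 L4. Without the cells above 1000 CPM of these markers, 24 S1 and 39 V1 cells remained. The Gria1 difference was then -0.50, that of Gria2 -0.07, that of Gria3 0.30 and that of Gria4 -0.56. Grin1 differed by 0.06, Grin2a by 0.58, Grin2b by -0.15, Grin2d by -0.38 and Grin3a by -0.50. The AMPA and NMDA sums differed by -0.18 and -0.19.

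In L5 the same comparison of areas set 16 S1 cells against 17 V1 cells over 4 dates. Of the 9 members 3 were higher in S1 by 1 log2 unit or more, where 21.6% of the 9993 genes were, and 1 was lower, where 8.96% were. The members' median difference was 0.68, and that of all genes was 0.22. With these backgrounds the counts alone set the members little apart.

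Grin2a had the largest difference among the members in L5, with a mean of 5.24 in S1 and 3.10 in V1. The difference was 2.14 (SD over dates 1.36), above 0 in 4 of 4 dates and beyond the spread. It was 1.59 without date 4. Gria2 was higher in S1 by 1.34 (SD 1.56) and Grin2b by 1.19 (SD 1.30), both in 4 of 4 dates but within the spread. Both rested on date 3, where they were higher by 3.48 and 2.98; without that date the differences were 0.64 and 0.56. Among the 5 V1 L5 cells of date 3 was a cell with reads of Gria1 (9.78 on the log2 scale) and Grin1 (9.34) and no read of the other members. Of all genes 13.97% had the same sign in every date, beside 3 of 9 members, Grin2a, Gria2 and Grin2b.

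Gria1 was the member that was lower in S1 L5, with a difference of -1.001 (SD 1.06) that was below 0 in 3 of 4 dates. Its group medians of 682 and 880 CPM lay closer, and the difference of the medians on the log2 scale was -0.37. Grin1 was higher by 0.73 (SD 0.77) and Gria3 by 0.68 (SD 1.50), within the spread. Gria4, Grin2d and Grin3a differed by 0.04, 0.16 and -0.26, and no direction can be given for them. The AMPA sum was higher in S1 L5 by 0.35 (SD 0.32, 4 of 4 dates), but by 0.22 without date 3 and 0.17 without the cells rich in oligodendrocyte markers described next, both within that SD, while the NMDA sum differed by 0.10 (SD 0.34).

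Oligodendrocyte markers, all 4 with reads in S1 L5 and 3 of 4, without Mog, in V1 L5, were at 636 CPM in S1 L5 and 200.3 in V1 L5, and their sums ran from 0 to 4416 and from 0 to 3870 CPM. Microglia markers were at 104.9 and 422 CPM and excitatory neuron markers at 213 and 297 CPM. Without the cells above 1000 CPM of oligodendrocyte markers 1 member was past 1 log2 unit, Grin2a at 2.37, while Gria2 was at 0.51, Grin2b at 0.75 and Gria1 at -0.17. Among cells with at least 4000 detected genes it was also 1, Grin2a at 2.69.

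**Figure D4:**
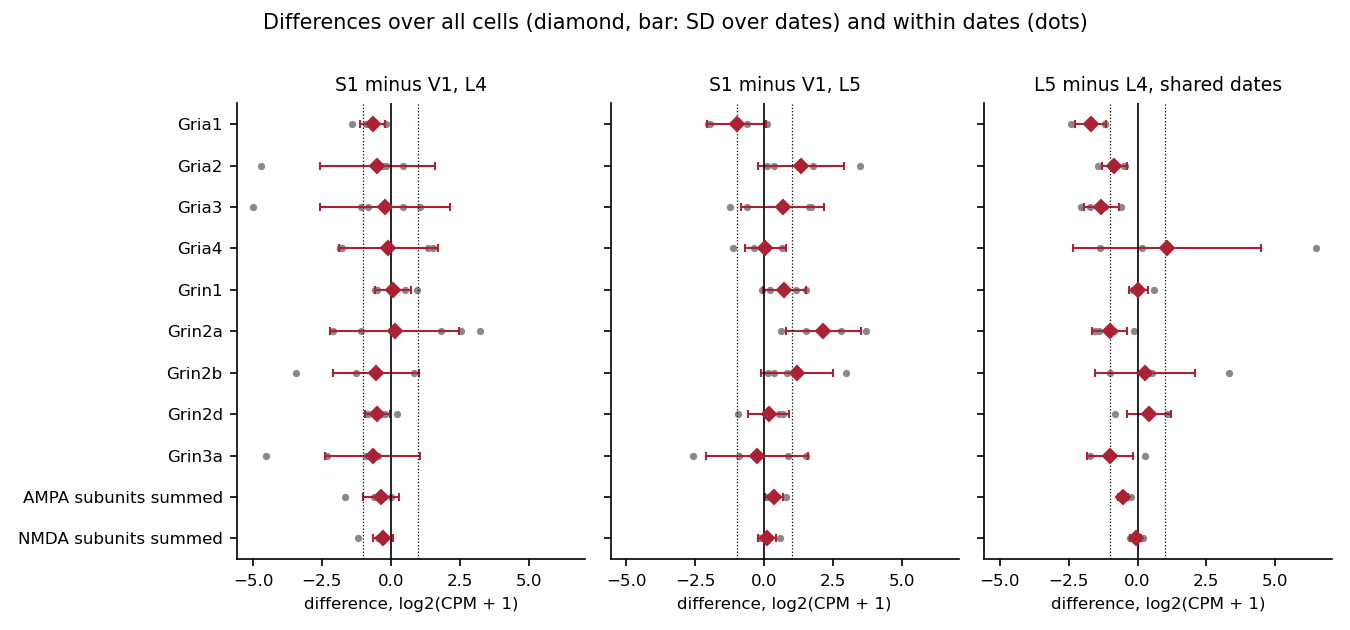
Differences in mean log2(CPM + 1) for the 9 members and for the summed AMPA and NMDA subunits, S1 minus V1 in L4 and in L5, and L5 minus L4 over dates 3 to 6. Diamonds are differences over all kept cells with the SD over dates as bars, grey dots are differences within dates, and dotted lines mark 1 log2 unit; the L5 minus L4 dots of Gria1, Gria2, Gria3, Grin2a and the AMPA sum all lie below 0.

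Layers were compared over dates 3 to 6, the dates with L5 cells, as L5 minus L4 with both areas together (33 and 19 cells). This comparison shares its L5 cells with the comparison of areas in L5. Some dates had few L4 cells: date 6 had 1 of V1 and 1 of S1, and date 4 had 1 of V1 and 3 of S1. Of the 9 members 3 were lower in L5 by 1 log2 unit or more, namely Gria1, Gria3 and Grin2a, where 10.8% of the 9993 genes were, and 1 was higher, Gria4, where 10.9% were. The median difference was -0.84 over the members and 0.01 over all genes. The sign was the same in every date for 4 of 9 members and for 14.5% of all genes.

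Gria1 had the largest layer difference. Its level in L4 ran from 296 to 2177 CPM with a median of 1312, and in L5 from 0 to 2132 CPM with a median of 689. No L4 cell of these dates and 4 of 33 L5 cells were below 100 CPM, and the ranges overlap above that. The difference of the means was -1.70 (SD over dates 0.58), below 0 in 4 of 4 dates. It was -0.93 between the medians over cells. The Gria1 share of the AMPA sum differed by -13.8 percentage points (SD 8.07), below 0 in 4 of 4 dates.

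Gria3 differed by -1.31 (SD 0.63) and Gria2 by -0.84 (SD 0.46), both below 0 in 4 of 4 dates. The Gria3 medians of 428 CPM in L5 and 546 in L4 lay close together, with a difference of -0.35 on the log2 scale, and the mean difference rested on the low end: 7 of 33 L5 cells and 0 of 19 L4 cells had less than 100 CPM. The AMPA subunits summed were lower in L5, with a difference of -0.53 (SD 0.17, 4 of 4 dates), which is beyond the spread. Within V1 it was -0.86 and within S1 -0.25.

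Gria4 was the AMPA subunit with a higher mean in L5, by 1.08, but the spread of 3.41 exceeds it, and without date 6 the difference was 0.24. Among NMDA subunits Grin2a was lower in L5, with a difference of -1.02 (SD 0.64, 4 of 4 dates) and medians of 21.1 CPM in L5 and 51.9 in L4, and the difference was -0.74 without date 6. Without date 6, 2 members were past 1 log2 unit. Grin1 differed by 0.03 (SD 0.36), Grin2b by 0.26 (SD 1.81), Grin2d by 0.40 (SD 0.80) and the NMDA sum by -0.07 (SD 0.21), all within the spread. Grin3a differed by -0.99 (SD 0.83, 3 of 4 dates), a value that became 0.22 when the cells without an Sst read were kept. In this comparison these were S1 L4 cells of dates 3, 4 and 5, with 502, 921 and 94.4 CPM of Pvalb.

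The layer differences were also computed within each area. L5 minus L4 was -1.55 for Gria1 in V1 (17 L5 and 7 L4 cells) and -2.03 in S1 (16 and 12 cells), and -1.50 and -1.05 for Gria3. For Gria2 the values were -1.71 in V1 and -0.03 in S1, for Grin2a -1.40 and -0.30 and for Grin2b -0.78 and 1.15. Whether the layer difference of these 3 genes differs between areas was not tested.

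The level of a member was then correlated with that of every other gene across the kept cells, which share their protocol and differ in depth, area, layer and date, so that r is a description only. Gria2 had the strongest likeness, with the long noncoding RNAs Meg3 (Pearson r 0.83, Spearman rho 0.55) and Snhg11 (r 0.79, rho 0.68). After thinning to 250000 reads r was 0.85 and 0.81. Gria1 was most like Crhbp, which binds corticotropin-releasing hormone (r 0.56, rho 0.21), and the secreted neuropeptide precursor Vgf (r 0.55, rho 0.40). Grin2b was most like the postsynaptic scaffold gene Lrrc7 (r 0.58, rho 0.44) and then Gria2 (r 0.55, rho 0.34). Gria3 was most like the calcium pump gene Atp2b1 (r 0.55, rho 0.14), and Grin3a most like Ogdh (r 0.51, rho 0.27). Grin1 was most like its antisense partner Grin1os (r 0.46), with which it may share reads. The highest r of Gria4, Grin2a and Grin2d with another gene was 0.49, 0.43 and 0.38. Among the 36 pairs of members r ran from -0.18 to 0.55 with a median of 0.11. The highest after Gria2 with Grin2b was Gria2 with Gria3 at 0.43, and Gria1 with Gria2 was at 0.07. Within L4 the r of Gria2 with Grin2b was 0.36 in V1 and 0.55 in S1, and that of Gria2 with Gria3 was 0.17 and 0.62.

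Genes that act on these receptors were counted in 4 lists. Their counts past 1 log2 unit stand beside the shares of all genes given above, which were 7.64% higher and 7.29% lower in S1 L4, 21.6 and 8.96% in S1 L5, and 10.9 and 10.8% in L5 against L4. Of 16 AMPA auxiliary and assembly genes 12 entered the comparisons: in L4 1 was higher and 1 lower in S1 by 1 log2 unit or more, in L5 2 were higher and 0 lower in S1, and between layers 1 was higher and 2 lower in L5. Of 20 scaffold and trafficking genes 19 entered, with 1 higher and 3 lower in S1 L4, 5 higher and 0 lower in S1 L5, and 3 higher and 1 lower in L5 against L4. The list medians in the same order were 0.23, 0.50 and -0.30 for the auxiliary genes and -0.23, 0.60 and -0.39 for the scaffold genes, beside 0.01, 0.22 and 0.01 over all genes. The direction of these medians followed that of the members' medians in S1 against V1 L5 and between layers, and in L4 for the scaffold genes only. The pentraxin median went the other way in S1 against V1 L5 (-1.09) and between layers (0.39). That of the RNA editing genes did so between layers only (0.21). Each of these short lists had 2 genes past the filter.

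Of the 35 list genes tested, 3 were higher and 1 lower in S1 L5 by 1 log2 unit or more with the same sign in every date, where 7.63 and 3.52% of all genes were, and between layers 3 were higher and 1 lower, where 5.14 and 4.12% were. These counts lie near the background, and the genes are named by that rule alone. In S1 against V1 L5 these were Dlg4, which encodes PSD-95 (1.61, SD over dates 0.77), the AMPA auxiliary gene Cnih2 (1.37, SD 1.05), the Gria2 and Gria3 binding scaffold Grip1 (1.16, SD 0.69), and Nptx1, a secreted pentraxin that clusters AMPA receptors, which was lower (-1.89, SD 0.83). In L5 against L4 they were Cnih3 (1.67, SD 0.54), Nptx1 (1.27, SD 1.37), the scaffold gene Homer2 (1.13, SD 1.12) and Cpt1c, which takes part in AMPA receptor export (-1.05, SD 0.40). In S1 against V1 L4 there were 0 such genes, where 1.22% of all genes were higher and 1.79% lower in this way. Several of them were low genes: on the log2(CPM + 1) scale Cnih3 was at 2.07 in L5 and 0.40 in L4, Nptx1 at 2.18 and 0.90, and Homer2 at 2.65 and 1.53, while in L5 Nptx1 was at 1.21 in S1 and 3.09 in V1 and Dlg4 at 3.73 and 2.12.

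Of the 3 pentraxin genes 2 entered the comparisons, Nptx1 and Nptx2, and Nptx2 differed within its spread in all 3. Of the 3 RNA editing genes Adar and Adarb1 entered. Adarb1, the enzyme of the Gria2 site, was at a mean of 4.87 in S1 L4 and 4.73 in V1 L4, a difference of 0.14 (SD 1.63). It was at 5.15 in S1 L5 and 4.05 in V1 L5, a difference of 1.11 (SD 2.70), and the layers differed by -0.33 (SD 1.56). Adar differed by -0.36, 0.05 and 0.75 in the same comparisons, each within its spread.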

How the data were processed

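RNA of 118 SOM+ cells was read by Patch-seq, and 109 cells were kept. The authors demultiplexed with bcl2fastq 2.20, aligned to mm10 with STAR 2.4.2a, and deposited read counts per gene without normalization and RPKM values computed from RefSeq gene models. Counts gave every level and difference, as log2(CPM + 1) with a pseudocount of 1, and the deposited RPKM values gave the order of genes and the shares within a cell. Of 24490 rows, those that share a symbol were summed, and each member has 1 row. Total counts per kept cell ran from 97904 to 3295232.

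Groups come from the area and layer of the labels. With 1 sample a group no test was run; spread is the SD over label dates with at least 2 cells of each group. More dates than mice are known from the study, so dates may share an animal. The background holds genes that reach 32 counts in 10 or more kept cells. Shares within a cell needed at least 100 reads. Thinning drew 250000 reads a cell (seed 1, 106 cells). The functions were tested on simulated data.

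The members and lists were chosen with earlier results of these data known. Members are all named, and list genes are named where they passed 1 log2 unit with 1 sign in every date. The most similar genes are the first by Pearson r among genes past the filter. Coordinates and sequences are from GENCODE M21 on GRCm38. Alternative size factors came from edgeR 4.0.16 and DESeq2 1.42.0 in R 4.3.3, and all else from SciPy 1.17.1, pandas 2.3.3, NumPy 2.4.6 and matplotlib 3.10.9 under Python 3.11.15. Marker lists not given above were pooled over cells: Vip at 0 to 0.310 CPM, endothelial genes at 0 to 0.715, oligodendrocyte precursor genes at 0 to 1.71, Pvalb at 1.14 to 41.8, astrocyte genes at 6.95 to 99.2, and in L4 microglia genes at 198 (V1) and 149 (S1) and excitatory genes at 200 (V1) and 174 (S1). SOM interneuron genes were at 4200 to 6007 CPM pooled. Single V1 L4 cells reached 3607 CPM of astrocyte and 1345 of microglia genes. The excitatory sum per cell had medians of 181 CPM in V1 L4 and 138 in S1 L4 (highest 549 and 474). In L5 these medians were 256 in V1 and 223 in S1 (highest 764 and 551). 1 gene of the oligodendrocyte list is not reported here and was left out of its sums. Electrophysiology was not analysed here.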

Additional observations from a re-analysis of the deposited data

Results flagged for a closer look

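Cells that the filter left out held reads of the receptor genes. The V1 L5 cell with more Slc17a7 than Gad1 plus Gad2 reads had more than 3 counts of 9 of the 9 members, among them 1498 CPM of Gria2, 669 of Grin2b and 236 of Grin3a. The 4 S1 L4 cells with an Sst count of 0 had more than 3 counts of at least 5 and at most 7 members. In all 4 of these cells Grin3a had 0 counts, with 5832 to 7394 detected genes a cell, while all but 5 of the kept cells had a read of it. A count of 0 allows up to 1.04 to 9.77 CPM in each of these cells. They were recorded on dates 2, 3, 4 and 5. Pvalb, the marker of parvalbumin interneurons, was at 758, 502, 921 and 94.4 CPM in them in that order, while the kept S1 L4 cells had a median of 1.46 CPM and a highest value of 257. The methods of the study left out 3 fast-spiking cells that mapped to a Pvalb type, and the labels do not say which cells these were.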

How the results depend on the processing

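No paired analysis was possible because no result comes from a test and the replicate numbers only name cells, and the mean of the differences within dates is given in its place. In S1 against V1 L4, 0 members passed 1 log2 unit; it was 1 with the cells without an Sst read, 1 over June to July dates, 1 over September dates and 3 as the mean within dates. Leaving out dates gave 0 to 0. In S1 against V1 L5 the 4 members became 2 at a pseudocount of 10, 1 with at least 4000 genes and 1 without cells above 1000 CPM of oligodendrocyte markers (chosen after seeing the data); leaving out dates gave 3 to 4. In L5 against L4 the 4 became 1 at a pseudocount of 10, 2 with RPKM, 2 with the cells without an Sst read, 2 between medians and 1 against L4 cells of all dates; leaving out dates gave 2 to 4. The Gria2 share without a date ran from 37.3 to 43.1% in V1 L4, 38.5 to 42.1% in S1 L4, 28.5 to 35.5% in V1 L5 and 39.3 to 65.4% in S1 L5. The Grin2b share ran from 51.7 to 67.6%, 62.0 to 68.2%, 81.2 to 95.7% and 74.5 to 79.2%. In S1 L4 it was 75.9% on counts, 52.0% with at least 500 reads and 55.4% of the summed RPKM, in V1 L5 70.7% of the summed RPKM, and in S1 L5 84.0% on counts and 69.3% of the summed RPKM. No member past 1 log2 unit over all kept cells changed sign under any alternative of that comparison. Of 605 differences of members and sums under alternatives 596 moved by less than the SD over dates, a mild measure where that SD is large, as for Gria4 between layers (3.41). Between layers the AMPA sum and Gria2 stayed within it in 16 of 18 alternatives, and Gria1, Gria3, Grin2a and Grin3a in 17 of 18. These are the layer differences that were beyond the spread. Gria1 stayed below 0 under all 18 alternatives between layers (-2.03 to -0.93) and all 22 between areas in L4 (-0.95 to -0.33). Depth limits Grin2d, read in 33.9% of cells and in 22.6% after thinning.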
